A study of Mus musculus with 39 samples.

Results

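T cell high pancreatic tumour clones fell apart in gene expression, and the 8 libraries described here were selected on measured values. They are the T cell high libraries with under 10 CPM in sum for 4 genes of heart muscle, Myh6, Myh7, Myl2 and Mb, and number 8 of 39 libraries in all and of 14 T cell high libraries. CPM is a gene's count scaled to a common library size. On the 4-clone side stand 4 libraries, 1 each of clones yfp_6499c4, yfp_6555c3, yfp_6620c1 and yfp_7160c2, all from tumour number 2. On the 2-clone side stand 4 libraries of 2 clones, 1 of yfp_6556c4 from tumour 2 and 3 of yfp_2838c3 from tumours 2, 3 and 4, so a single clone gives 3 of the 4 libraries on that side. The sides were chosen by the score of each library on the first principal component of these same libraries. Every difference between the sides in the 8 libraries is therefore a description and carries no test. All clones grew subcutaneously in C57BL/6 mice that received no treatment, and the tumours were taken 3 weeks after implantation and sorted for tumour cells, in libraries whose names carry YFP. The labels give neither the sex nor the age of the mice, nor whether tumours of a clone grew in different mice. Each clone is a single line of cells, named here as in the labels. Tumour 1 libraries of the same 6 clones, 6 in number, and 9 heart-free libraries of 8 T cell low clones serve for comparison.

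Pancreatic ductal tumour cells can keep an epithelial programme, with tight junctions, mucins and ion transport of the duct, or lose it in part and switch on mesenchymal factors. Tumour cells also shape which leukocytes enter a tumour, through chemokines, cytokines, prostaglandins and antigen presentation. The T cell class of a clone describes the tumour it forms, not its own expression.

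The 8 libraries held 26866065 to 41683806 counts each. No 2 of them agreed within counting noise, with a chi-square per degree of freedom of 100.3 to 163 between the yfp_2838c3 libraries and of up to 339 between the sides. Clone yfp_6556c4 differed from yfp_2838c3, on its own side, by 143 to 306, and from yfp_6620c1 and yfp_7160c2, on the other side, by 215 and 221, so it was closer to those 2 clones than to yfp_2838c3 tumour 4. The first component of the 500 most variable genes held 53.2% of the variance and the second 16.5%. The scores on the first were 35.6 in yfp_6499c4, 45.5 in yfp_6555c3, 28.2 in yfp_6620c1 and 43.0 in yfp_7160c2. They were -53.7, -52.3 and -43.5 in yfp_2838c3 tumours 2, 3 and 4, and -2.78 in yfp_6556c4. Clone yfp_6556c4 thus stood between yfp_2838c3 and the other 4 clones, nearer to 0 than to yfp_2838c3, and it was the lowest library on the second component, at -40.8.

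**Figure D1:**
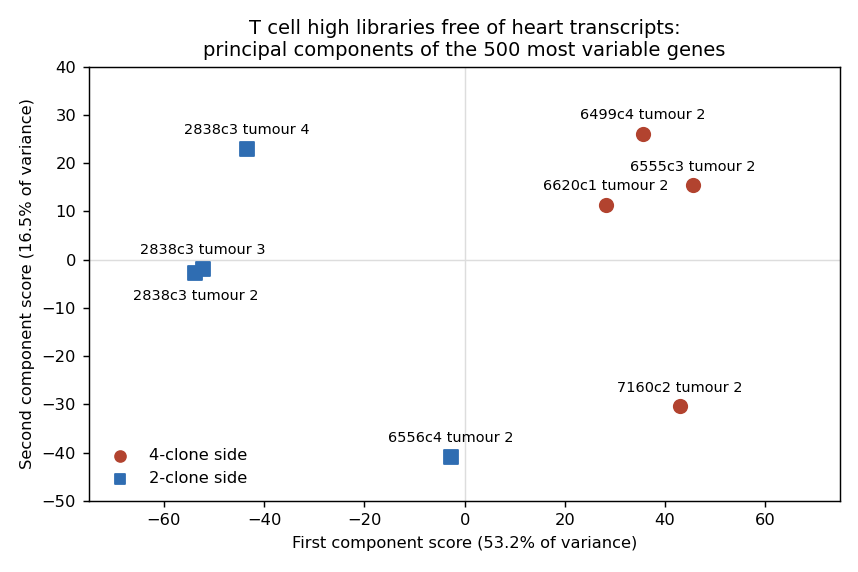
First and second principal component scores of the 8 libraries, from log2 CPM of the 500 most variable genes, with circles for the 4-clone side and squares for the 2-clone side. The 4-clone libraries lie at 28.2 to 45.5 on the first component, the yfp_2838c3 libraries at -53.7 to -43.5 and yfp_6556c4 at -2.78.

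Transcripts of other cell types crossed the sides. The summed level of 10 pan-leukocyte markers was 468, 586 and 385 CPM in yfp_6499c4, yfp_6555c3 and yfp_6620c1 and 551 CPM in yfp_2838c3 tumour 4, but 44.1 CPM in yfp_7160c2, 80.8 CPM in yfp_6556c4 and 66.9 and 68.0 CPM in yfp_2838c3 tumours 2 and 3. The sum of 11 macrophage markers divided the libraries in the same way, at 7122, 4644, 4422 and 5673 CPM in the 4 leukocyte-rich libraries and 470.4, 364, 609 and 865 CPM in the 4 leukocyte-poor ones. Each side thus held both kinds of library. In yfp_6556c4 the gene Cd53 alone gave 51.0 CPM of the pan-leukocyte sum, against 7.09 to 7.93 CPM in the other leukocyte-poor libraries. The mean log2 CPM of the 10 markers was 1.83 in yfp_6556c4, 1.82 in yfp_7160c2 and 2.38 and 2.39 in yfp_2838c3 tumours 2 and 3. T cell markers summed to 2.23 to 13.1 CPM over 12 genes, and the defining genes Cd3d, Cd3e, Cd3g and Cd8a were at most 0.909 CPM and at 0 in 1, 2, 3 and 2 of the 8 libraries. Fibroblast markers summed to 17426 CPM in yfp_6555c3 and to 115 to 830.1 CPM in the other 7 libraries, and endothelial markers to 256 CPM in yfp_6555c3 and 9.92 to 50.5 CPM in the others. Liver markers summed to 11.5, 15.8 and 33.9 CPM in yfp_2838c3 tumours 2, 3 and 4 and to at most 0.215 CPM elsewhere. Mitochondrial genes took 3.14%, 3.73%, 2.35% and 1.91% of counts in yfp_6499c4, yfp_6555c3, yfp_6620c1 and yfp_7160c2, against 1.14% in yfp_6556c4 and 1.22%, 1.79% and 1.12% in yfp_2838c3, with no overlap between the sides. The part of these transcripts in the differences between the sides was not tested. In sorted bulk cells, fewer cells that express a gene and less RNA per cell cannot be told apart.

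A gene was called separated when all 4 libraries of a side lay beyond all 4 of the other and the difference of the sides, with clones weighted equally, was at least 2 on the log2 CPM scale with a prior count of 2. In this sense 250 of 13593 genes, 1.84%, stood higher on the 4-clone side and 88, 0.647%, on the 2-clone side. The choice of the sides from these values fixes that such genes exist. Without the minimum difference, 1123 and 1194 genes did not overlap. The median difference was -0.01 over all genes, 3.13 over the 250 and -3.03 over the 88, and the widest were 8.53 and -5.36. The genes just inside the minimum differed by 2.01 and -2.02 and those just outside by 1.99 and -1.99. Leaving out yfp_6556c4 raised the counts to 408 and 187, which are then the differences of 4 clones from yfp_2838c3 alone. Between the leukocyte-poor libraries alone, yfp_7160c2 against yfp_6556c4 and yfp_2838c3 tumours 2 and 3, the median difference of the 250 genes was 3.49 and of the 88 genes -2.87. Between the leukocyte-rich ones, yfp_6499c4, yfp_6555c3 and yfp_6620c1 against yfp_2838c3 tumour 4, the medians were 3.17 and -2.87. The sign of these medians is set by the choice of genes.

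The genes named first had the widest gap between the lowest library of the higher side and the highest library of the lower side. Most of those on the 4-clone side were close to silent in the other 2 clones. In each list of values that follows, the 4-clone values are in the order yfp_6499c4, yfp_6555c3, yfp_6620c1 and yfp_7160c2, and the 2-clone values in the order yfp_6556c4 and yfp_2838c3 tumours 2, 3 and 4. Twist1, a helix-loop-helix factor of mesenchyme that can drive epithelial cells toward a mesenchymal state (ENSMUSG00000035799, chromosome 12, 33957671 to 33959829, + strand), was at 68.02, 75.8, 52.9 and 49.1 CPM on the 4-clone side and at 0.557, 0.463, 0.389 and 0.397 CPM on the 2-clone side. Cacna2d1, an auxiliary subunit of voltage-gated calcium channels (ENSMUSG00000040118, chromosome 5, 15934691 to 16374511, + strand), was at 68.97, 59.2, 70.4 and 56.6 CPM against 0.209, 0.424, 0.365 and 0.323 CPM. For both genes every 4-clone library was high and every 2-clone library under 1 CPM, a difference of 6.81 and 7.56 on the log2 scale. Among T cell low clones, both genes ran from values near those of the 2-clone side to far higher ones, at 0.564 to 39.6 CPM for Twist1 and 0.624 to 119 CPM for Cacna2d1.

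The genes with the widest gaps did not share a density of CG dinucleotides upstream of their start. The 250 bases before the annotated start are given from RefSeq on GRCm38.p6, 5′ to 3′ on the strand of the gene, for the 3 genes with the widest gap on the 4-clone side, of which Spock3 encodes a secreted proteoglycan, and for Nqo1, with the widest gap in the other direction. All 4 were under 1 CPM in every library of a side, and the capitals mark CG dinucleotides. Spock3 lies on the + strand at chr8:62950982-62951231, Twist1 on the + strand at chr12:33957421-33957670, Cacna2d1 on the + strand at chr5:15934441-15934690 and Nqo1 on the - strand at chr8:107403206-107403455. In GENCODE M21 Spock3 starts at 62951009, inside its window, so much of that window lies within the gene by that annotation.
Spock3: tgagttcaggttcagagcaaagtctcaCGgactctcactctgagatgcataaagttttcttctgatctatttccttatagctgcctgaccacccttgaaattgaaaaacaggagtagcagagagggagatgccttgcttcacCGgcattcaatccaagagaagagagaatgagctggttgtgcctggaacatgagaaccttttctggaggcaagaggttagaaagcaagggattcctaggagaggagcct
Twist1: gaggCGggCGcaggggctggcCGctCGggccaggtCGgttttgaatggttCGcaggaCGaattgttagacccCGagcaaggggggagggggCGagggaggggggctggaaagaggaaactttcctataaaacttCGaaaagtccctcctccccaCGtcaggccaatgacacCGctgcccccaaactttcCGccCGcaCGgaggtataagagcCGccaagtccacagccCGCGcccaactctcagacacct
Cacna2d1: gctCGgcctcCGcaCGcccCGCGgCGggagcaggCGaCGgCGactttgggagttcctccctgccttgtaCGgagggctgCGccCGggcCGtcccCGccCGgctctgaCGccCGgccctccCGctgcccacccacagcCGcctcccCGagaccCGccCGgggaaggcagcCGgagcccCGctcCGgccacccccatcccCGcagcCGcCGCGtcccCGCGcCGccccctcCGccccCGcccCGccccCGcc
Nqo1: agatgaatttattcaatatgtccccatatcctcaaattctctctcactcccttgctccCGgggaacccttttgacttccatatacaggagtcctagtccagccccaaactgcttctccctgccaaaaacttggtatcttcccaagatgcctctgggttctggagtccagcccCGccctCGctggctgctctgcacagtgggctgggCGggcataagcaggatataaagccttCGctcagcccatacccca
The Cacna2d1 window held 36 CG dinucleotides, a number reached by 2.46% of 27025 mouse promoters of the same length. Twist1 held 18, reached by 21.6%, Nqo1 5, reached by 55.5%, and Spock3 2, reached by 80.6%. In these 4 windows the number did not follow the side, with only 1 gene for the 2-clone side. These counts describe the windows alone, since no methylation was measured. Of the 250 genes 69.2% had an entry, of the 88 genes 68.2% and of all 13593 genes 72.1%. The median number of CG dinucleotides was 11, 12 and 16 in turn, and the difference between these sets was not tested.

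Other leading genes of the 4-clone side encode proteins best known outside the pancreatic duct. Stmn2, a stathmin of neurons that binds tubulin, was at 198, 79.9, 22.3 and 45.5 CPM against 0.313, 0, 0 and 0.0994 CPM, and Spock3 at 30.2, 36.2, 74.1 and 86.3 CPM against 0.139, 0.0385, 0.0486 and 0.0745 CPM. The sides were far apart for both, with yfp_6499c4 highest for Stmn2 and yfp_7160c2 for Spock3. Asz1, a germ cell protein of the piRNA pathway, was at 23.4, 44.8, 21.8 and 53.7 CPM against 2.47, 0.231, 0.267 and 0.199 CPM, where yfp_6556c4 was the highest of the low side. The GTPase activator Arhgap44 was at 77.4, 107, 59.004 and 103.8 CPM against 1.11, 0.0771, 0.0729 and 0.174 CPM. The homeobox factor Zfhx4 and the tuft cell kinase Dclk1 differed by 5.62 and 4.25, and Scml4, a relative of Polycomb proteins, by 3.68.

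Receptors, ligands and surface enzymes followed. Il17re, a receptor subunit for interleukin 17C, was at 38.4, 60.03, 27.6 and 56.6 CPM against 0.801, 0.848, 2.43 and 1.49 CPM, and the growth factor gene Pdgfd at 37.9, 46.5, 32.2 and 39.3 CPM against 4.49, 0.578, 1.26 and 1.59 CPM. No library of the 2-clone side came near the other side for either gene. Fut9, a fucosyltransferase that makes the Lewis x sugar, was at 4.26, 7.87, 8.47 and 32.1 CPM against 0.244, 0, 0 and 0 CPM, so all yfp_2838c3 libraries held none of its counts. The secreted protein gene Nepn, the adhesion receptor gene Gpr123 and the immunoglobulin-domain gene Vsig2 made up the rest of the 15 widest gaps, at 3.35 to 41.9 CPM against at most 0.174 CPM.

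On the 2-clone side the widest gap was that of Nqo1, a quinone reductase induced under oxidative stress (ENSMUSG00000003849, chromosome 8, 107388225 to 107403206, - strand), at 0.493, 0.407, 0.596 and 0.161 CPM against 11.04, 13.6, 17.9 and 13.6 CPM. All 4-clone libraries were under 1 CPM, and T cell low clones spanned 0.177 to 20.2 CPM. Slco2a1, a transporter that takes up prostaglandins, was at 0.899, 16.1, 7.85 and 14.8 CPM against 97.4, 119, 103 and 89.01 CPM, with yfp_6499c4 the lowest. Il1r1, the signalling receptor for interleukin 1, was at 0.899, 31.3, 35.9 and 29.4 CPM against 79.2, 76.9, 91.5 and 72.1 CPM, where yfp_6499c4 was again the lowest and the other 3 clones stood close together. These are genes that T cell low clones expressed, at 21.5 to 108 CPM for Slco2a1 and 24.8 to 102 CPM for Il1r1.

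Among transcription and chromatin genes, the homeobox factor Meis1 was at 0.145, 4.48, 0.285 and 4.72 CPM against 32.5, 33.7, 19.6 and 20.3 CPM and the chromodomain gene Cdyl2 at 0.783, 4.14, 9.43 and 6.57 CPM against 49.6, 59.4, 30.1 and 27.2 CPM. Mt2, a metallothionein that binds zinc and copper, was at 53.7, 60.4, 23.4 and 24.9 CPM against 248, 161, 388 and 145 CPM. Rasef, a Rab GTPase with calcium-binding hands, was at 1.91, 2.29, 0 and 3.09 CPM against 93.5, 16.1, 17.9 and 15.03 CPM with yfp_6556c4 far above yfp_2838c3. Receptor genes on this side were Ror1, a receptor for Wnt5a, with a difference of -2.11, and Gfra2, a co-receptor of neurturin, with -3.57. The neuropeptide precursor gene Qrfp, the urea transporter gene Slc14a1, the mucosal chemokine gene Cxcl17, Nptxr, Ndrg2 and Mb21d2 completed the 15, with differences of -2.32 to -5.05.

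**Figure D2:**
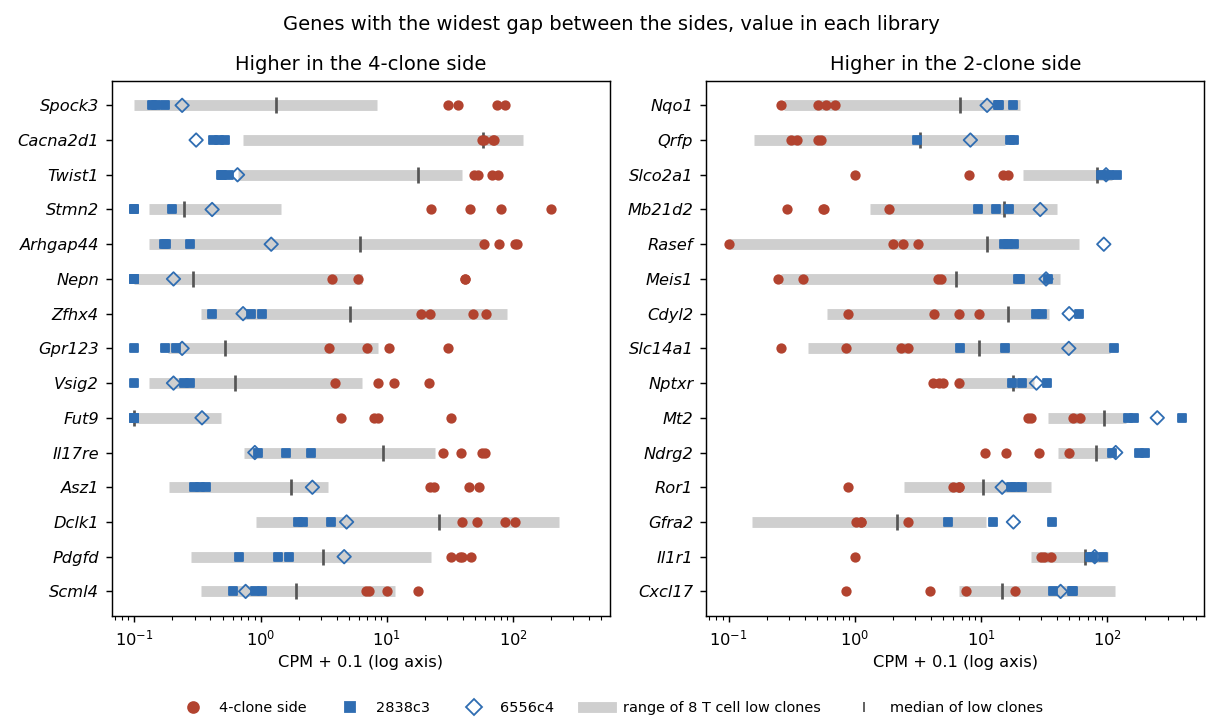
CPM plus 0.1 on a log axis of the 15 genes with the widest gap in each direction, with a point for each of the 8 libraries and, in grey, the range and median of 8 T cell low clones. The 4-clone points and the 2-clone points do not overlap in any row, since the genes were chosen for this, and the grey ranges show where low clones lie for each gene.

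Epithelial junction genes formed a group that stood higher on the 4-clone side. Of 28 listed genes 25 passed the filter of a mean of 1 CPM over the 8 libraries, 22 had a positive difference and 6 were separated, all higher on the 4-clone side, beside 1.84% of all genes. Their median difference was 0.87 against -0.01 over all genes, and it was 1.12 between leukocyte-poor and 0.53 between leukocyte-rich libraries. The claudins seal tight junctions: Cldn3 was at 98.6, 75.6, 10.6 and 154 CPM against 3.17, 0.116, 0.389 and 0.174 CPM and Cldn7 at 129, 147, 201 and 255 CPM against 59.2, 11.02, 27.6 and 9.44 CPM. In both, yfp_6556c4 was the highest library of its side. The adhesion gene Epcam was at 434, 408, 422 and 839 CPM against 95.6, 15.5, 72.7 and 36.3 CPM, with yfp_7160c2 well above all others. Cldn4 and the membrane proteases St14 (matriptase) and Prss8 (prostasin) were the other separated members. Cdh1, the core adherens junction cadherin, was at 849, 707, 1212 and 956 CPM against 780.0, 986, 976 and 1109 CPM and overlapped fully, a difference of 0.03. Of 6 simple keratin genes 0 were separated, and Krt8, at 3366, 2016, 2388 and 2332 against 3645, 2662, 3367 and 1657 CPM, overlapped too. Of 9 desmosome genes 0 were separated.

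The mesenchymal list had no steady direction. Of 24 genes 23 passed, 13 were positive, and 1, Twist1, was separated, beside 1.84% of all genes. The median of 0.17 turned to -0.15 without the fibroblast-rich library of yfp_6555c3. It was -0.14 between leukocyte-poor and 0.61 between leukocyte-rich libraries. The intermediate filament gene Vim was at 2211, 2009, 2109.7 and 1574 CPM against 3113, 3623, 3883 and 2219.7 CPM, lower in all 4-clone libraries, with a log2 difference of only -0.68. Fibronectin, Fn1, was at 2672, 3761, 2379 and 3351 CPM against 5874, 4695, 2494 and 3112 CPM and overlapped. In the 4 clones, the high Twist1 level therefore stood beside high Epcam and claudin levels in the same libraries.

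Secretory genes of ducts and mucous glands gave the longest set of separated genes of any list. All 27 passed, 9 were separated with higher levels on the 4-clone side beside 1.84% of all genes, and 1, Muc5b, on the other, beside 0.647%. The median difference was 0.71, or 3.85 between leukocyte-poor libraries, where yfp_7160c2 alone stands for the 4-clone side, and 1.12 between leukocyte-rich ones. Agr2, a disulfide isomerase needed for mucin folding, was at 92.03, 34.3, 131 and 138 CPM against 7.94, 0, 0.584 and 0.0497 CPM, and Spdef, a factor of goblet cell maturation, at 10.2, 5.74, 14.8 and 14.9 CPM against 0.488, 0.347, 1.46 and 1.24 CPM. Clone yfp_7160c2 was highest for both. Cftr, the chloride channel of the duct, was at 205, 153, 406 and 981 CPM against 142, 43.9, 24.2 and 29.6 CPM, where yfp_6556c4 lay just under yfp_6555c3. Muc4, Muc6, Car2, Aqp5, Pigr and Gkn3 were the other members higher on the 4-clone side. Muc5b, a gel-forming mucin, was at 0, 0.0313, 0.363 and 1.72 CPM against 4.81, 6.94, 5.81 and 8.27 CPM. Spp1, an osteopontin gene at high level in all 8 libraries, was at 7661, 3849.5, 5562 and 7812 against 5014, 5344, 5052 and 5184 CPM and overlapped. The list score, the mean log2 CPM of its members, was 6.55 in yfp_7160c2 and 3.33 in yfp_6499c4, so the 4 clones differed more among themselves than the sides did.

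Transcription factors of the foregut differed in single genes. Of 26 listed genes 17 passed and 2 were separated, both higher on the 4-clone side, beside 1.84% of all genes. The median of 0.32 did not hold between leukocyte-poor libraries, at -0.18, or leukocyte-rich ones, at -0.03. Cdx2, the homeobox factor of intestinal identity, was at 58.3, 29.7, 40.8 and 44.2 CPM against 26.3, 0.154, 1.51 and 0.224 CPM. Within the 2-clone side yfp_6556c4 lay just under yfp_6555c3 and far above yfp_2838c3, and the difference of the sides was 3.61. Hnf4g was at 9.17, 9.90, 6.92 and 11.97 CPM against 1.88, 0.231, 0.389 and 0.422 CPM, and its paralogue Hnf4a, at 152, 129, 279.8 and 328 against 384, 454, 345 and 434 CPM, leaned the other way with a difference of -0.94. No 4-clone library reached the lowest 2-clone library for Hnf4a, but the difference was under the minimum of 2.

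Ligands and a target of the Wnt pathway stood higher on the 4-clone side. Of 27 pathway genes 21 passed, 4 were separated, all in this direction, beside 1.84% of all genes, and the median difference was 0.92, or 0.51 without the fibroblast-rich library of yfp_6555c3. The ligand gene Wnt7a was at 28.7, 73.5, 73.7 and 70.97 CPM against 3.34, 6.63, 12.6 and 6.63 CPM and Wnt7b at 108, 146, 142 and 168 CPM against 34.4, 19.9, 14.1 and 4.60 CPM. Axin2, a feedback target of beta-catenin, was at 6.79, 6.55, 7.36 and 7.16 CPM against 1.60, 0.540, 2.65 and 2.14 CPM, with 4 nearly equal values on the 4-clone side. Wnt10a was the other separated member, and Ctnnb1, which encodes beta-catenin, differed by 0.41 without reaching the minimum. The retinoic acid list had 2 of 13 separated, also higher on the 4-clone side and beside the same 1.84%, of which Stra6, a retinol carrier receptor, was at 201, 223, 67.9 and 185 CPM against 28.98, 8.06, 12.1 and 12.5 CPM.

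Proliferation and glucose metabolism genes were lower on the 4-clone side over all 8 libraries by less than the minimum. The direction of the glucose genes turned between leukocyte-rich libraries, where yfp_2838c3 tumour 4 alone stands for the 2-clone side: their median was 0.78 there, with 20 of 22 positive, and -0.94 between leukocyte-poor libraries. Of all 13593 genes, 6837 were positive between leukocyte-rich and 6655 between leukocyte-poor libraries. Of 22 glycolysis and hypoxia genes 0 had a positive difference over all 8 libraries, with a median of -0.61 against -0.01 over all genes. Beside 0.647% of all genes, 1 of them was separated. This was Ndrg1, a gene induced by low oxygen, at 208, 153, 200.2 and 128 CPM against 933, 429, 980.5 and 335 CPM. The enzyme genes Ldha, at 950.2, 690.3, 1461 and 821 against 1900.4, 1097, 1359.6 and 607 CPM, and Gapdh, at 1190.3, 1448, 1985 and 1226 against 2527, 2106, 2297 and 856 CPM, overlapped, since yfp_2838c3 tumour 4 was the lowest of all for both. Of 28 cell cycle genes 3 were positive, also with a median of -0.61, which was -0.70 between leukocyte-poor and -0.10 between leukocyte-rich libraries. Mki67, a marker of cycling cells, was at 99.1, 126, 111 and 134 CPM against 272, 265, 167 and 182 CPM, without overlap but with a difference of -0.998. The 1 separated cell cycle gene, beside 1.84% of all genes, went the other way. Ccnd2, which encodes cyclin D2, was at 479.5, 809, 735 and 886 CPM against 87.6, 221, 218 and 360.1 CPM. Glutathione and drug metabolism had 3 of 23 genes separated toward the 2-clone side, Nqo1, Gsta1 and Gstm1, beside 0.647% of all genes. Gstm1, a glutathione transferase, was at 18.7, 18.96, 15.6 and 34.4 CPM against 64.1, 154, 158 and 206 CPM, while the median of the list was -0.07, or 0.04 without yfp_6555c3.

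Inflammation and immune genes divided by gene rather than by list. Il1rn, the natural antagonist of interleukin 1, was at 139.9, 141, 216 and 303 CPM against 38.2, 28.7, 6.47 and 13.2 CPM, and Il18 at 39.4, 33.3, 6.86 and 13.1 CPM against 2.47, 1.43, 1.77 and 3.33 CPM. Both were higher in all 4-clone libraries, while the receptor gene Il1r1, given above, was lower. These 3 were the separated members among 13 of the interleukin 1 and 6 families. Over all genes, 1.84% were separated toward the 4-clone side and 0.647% toward the other. Of 5 neutrophil-attracting CXCR2 ligand genes, 9 colony-stimulating factor and monocyte attractant genes and 12 lymphocyte attractant genes, 0 were separated. Cxcl1 was at 0.377, 1.16, 14.6 and 6.92 against 21.9, 0.655, 0.462 and 0.795 CPM, with yfp_6556c4 the highest of all 8, and Cxcl9, which attracts activated lymphocytes, at 3.54, 12.6, 2.69 and 31.8 against 24.9, 9.68, 3.04 and 34.2 CPM. The sides crossed for both. Of 18 MHC class I presentation genes and 33 interferon-stimulated genes 0 were separated, with medians of -0.37 and -0.28. These turned with the libraries compared, to 0.47 and 1.08 between leukocyte-poor ones and -1.31 and -1.22 between leukocyte-rich ones. Their scores were highest in yfp_7160c2, yfp_6556c4 and yfp_2838c3 tumour 4, on both sides.

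MHC class II genes, which present antigen mainly in leukocytes, were all 7 positive with a median of 1.71, against -0.01 over all genes. Of the 7 genes 0 were separated, beside 1.84% and 0.647% of all genes, and a list this short would hold none at these shares. The median was 1.79 between leukocyte-poor libraries, but -0.07 with 0 of 7 positive between leukocyte-rich ones. Of all 13593 genes, 6655 and 6837 were positive in these 2 comparisons. Cd74, the invariant chain, was at 272, 551, 265 and 243 CPM against 110.3, 69.2, 45.2 and 397 CPM, where yfp_2838c3 tumour 4 exceeded 3 of the 4 libraries of the other side. The pan-leukocyte sum was 551 CPM in that library. In yfp_7160c2, with a pan-leukocyte sum of 44.1 CPM, Cd74 was still at 243 CPM and H2-Ab1 at 85.5 CPM, against 110.3 and 30.0 CPM in yfp_6556c4 and 45.2 to 69.2 and 18.6 to 22.2 CPM in yfp_2838c3 tumours 2 and 3. The part of leukocyte RNA in this group was not tested.

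**Figure D3:**
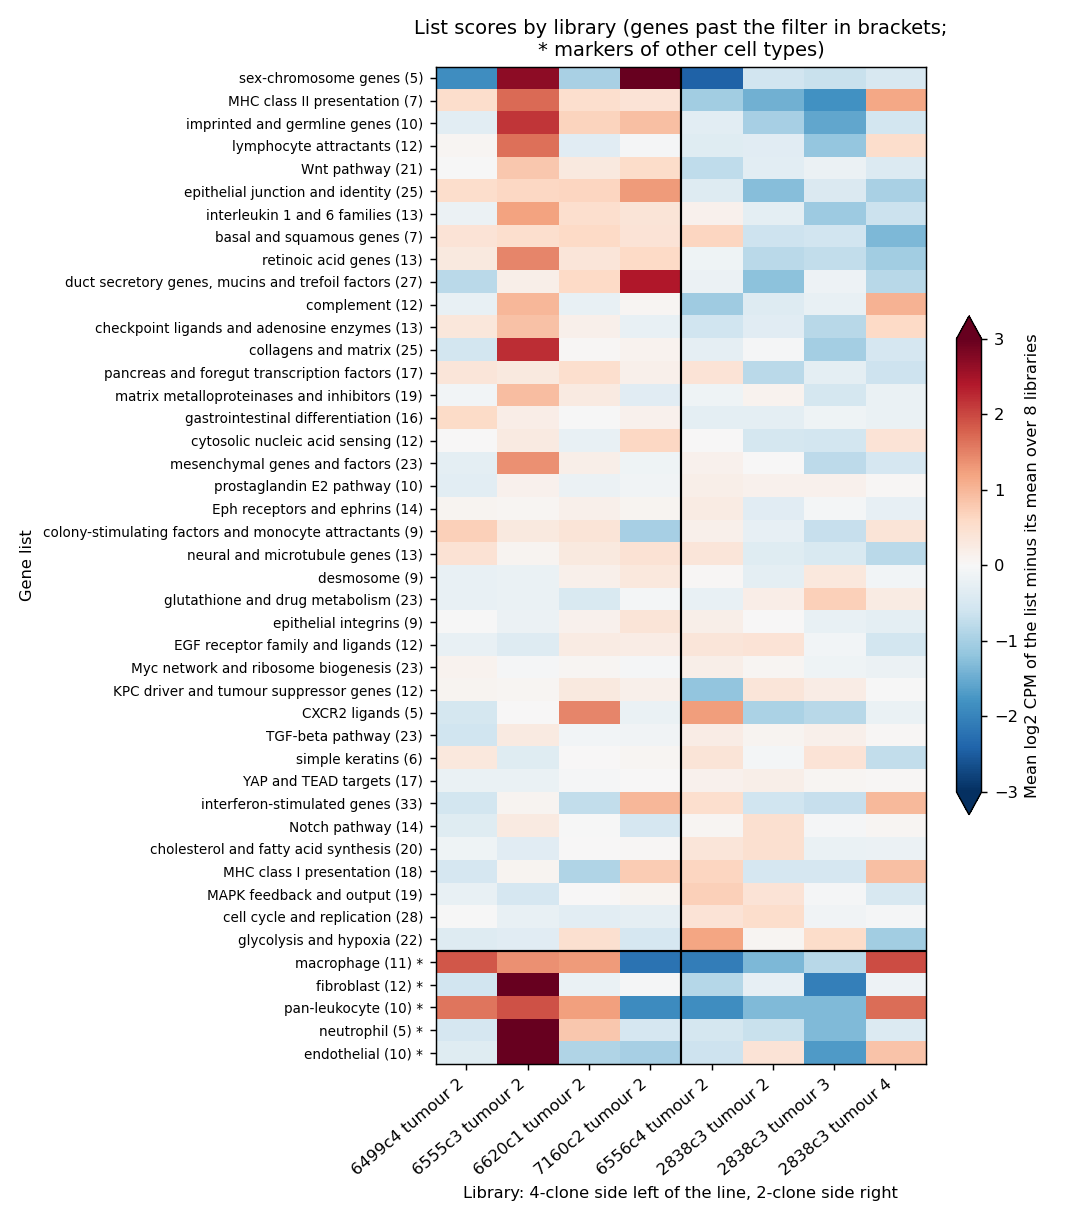
Score of each gene list (mean log2 CPM of the genes past the filter, minus the mean of the list over the 8 libraries) in each library, for lists with 5 or more such genes, with marker lists of other cell types in the lower block and colours capped at 3. The epithelial, Wnt and retinoic acid rows are higher on the left, while the macrophage and pan-leukocyte rows are high in 3 libraries on the left and in yfp_2838c3 tumour 4.

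Tumour suppressor genes of the Cdkn2 locus on chromosome 4 were separated, with yfp_6556c4 far below every other library. They were 2 of 12 listed driver and tumour suppressor genes, beside 1.84% of all genes. Both reached the minimum difference only through the 1 library of yfp_6556c4. Clone yfp_2838c3 lay nearer the 4 clones, at 245 CPM at most against 405 CPM at least for Cdkn2a. For Cdkn2b these values were 84.8 and 91.5 CPM. Cdkn2a, which encodes p16 and p19Arf, was at 769, 405, 543 and 455 CPM against 0.209, 226, 245 and 174 CPM, and its neighbour Cdkn2b at 139, 91.5, 121 and 189 CPM against 0.104, 84.8, 68.96 and 69.1 CPM. Both were at or under 0.209 CPM in yfp_6556c4 and well expressed in yfp_2838c3. Mtap, which lies beside them, was at 252, 193, 218 and 263 CPM against 757, 378, 297 and 259 CPM, with yfp_6556c4 the highest of the 8. The T cell low sister clone yfp_6556c3 had the same pattern, at 0.0937 CPM for Cdkn2a, 0.281 CPM for Cdkn2b and 779 CPM for Mtap. Genomic copies were not measured.

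The 2 clones of the 2-clone side also differed from each other. Of 13593 genes, 235 stood at least 4-fold higher in yfp_6556c4 than in all 3 yfp_2838c3 libraries and 221 at least 4-fold lower. No like count was made for other pairs of clones. Chi-square per degree of freedom was 143 to 306 between these 2 clones and 145 to 202 between clones of the 4-clone side. Chosen as the widest gaps, genes of yfp_2838c3 included kidney and embryonic factors: Sall1 was at 58.1, 36.2 and 39.3 CPM and Pax2 at 30.1, 32.6 and 55.4 CPM in yfp_2838c3 tumours 2, 3 and 4, against at most 0.0348 and 0.0805 CPM in the other 5 clones. The kidney cadherin gene Cdh16 was at 45.4, 68.6 and 154 CPM against at most 0.453 CPM. In yfp_6556c4, Clec2f was at 70.01 CPM, Thbs4, a matrix thrombospondin, at 63.8 CPM and Trib2, a pseudokinase, at 56.1 CPM, against at most 0.486 CPM in yfp_2838c3 for each. Xist, the RNA that silences an X chromosome in female cells, was at 2395, 1795 and 2303 CPM in yfp_2838c3, 3.97 CPM in yfp_6556c4, 642 CPM in yfp_6620c1, 27.8 CPM in yfp_6499c4 and under 1 CPM in yfp_6555c3 and yfp_7160c2. The Y-linked Ddx3y was at 15.7 CPM in yfp_6555c3, 37.8 CPM in yfp_7160c2 and 0 in the other 6 libraries.

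Clones of the 4-clone side also had private genes by the same choice, meaning genes above the other 7 libraries, with 1 library per clone. In yfp_7160c2 the homeobox gene Nkx6-3 was at 200.2 CPM and the gut hormone gene Pyy at 20.8 CPM, against at most 1.29 and 0.47 CPM in the other 7 libraries. In yfp_6499c4 Ltf, which encodes lactoferrin, was at 86.7 CPM against at most 21.7 CPM. In yfp_6620c1 the sodium channel subunit gene Scn3b was at 19.2 CPM against at most 0.795 CPM. In yfp_6555c3 the chemokine gene Cxcl12 was at 60.7 CPM against at most 1.73 CPM, in the library whose fibroblast markers summed to 17426 CPM. Outside the 8 libraries Cxcl12 was not private, at 41.6 to 71.2 CPM in tumour 1 of all these clones. It was at 11.4 CPM in the low clone yfp_6556c3.

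Set beside T cell low clones, more genes of the 4-clone side than of the 2-clone side lay beyond all low libraries. Counting genes that lay beyond all 9 low libraries with a difference of at least 2, 76 of 13517 genes, 0.562%, were above in the 4-clone side and 16, 0.118%, below. For the 2-clone side these were 7 genes above, 0.0518%, and 8 below, 0.0592%. The difference between these counts was not tested, and the 2-clone side rests on 2 clones of which 1 gives 3 libraries. A gene counted only where every library of a side lay beyond the low ones. The counts therefore depend on how alike the libraries of a side are. Genes of the 4-clone side above all low clones included Asz1, Fut9, Il17re, Pdgfd, Cldn7, Cdx2, the mucosal antibody carrier gene Pigr and the gut glutathione peroxidase gene Gpx2. Gpx2 was at 38.6, 54.7, 51.3 and 52.5 CPM in the 4 clones and at 1.98 to 25.9 CPM in low clones. The MHC class II genes Cd74, H2-Ab1, H2-Eb1 and H2-DMa were also among those above. The pan-leukocyte sum was 468, 586, 385 and 44.1 CPM in the 4 clones and 35.0 to 377 CPM in low clones. The part of leukocyte RNA in the genes above was not tested. Below all low clones stood Slco2a1, Muc5b, Adamts9, which encodes a matrix protease, the retinol carrier gene Rbp4 and the liver genes Alb, Apoa1, Afm and Cpn1. Rbp4 was at 68.6, 12.9, 60.4 and 15.2 CPM in the 4 clones and 103.9 to 404 CPM in low clones. Liver makes Rbp4 too, and the 6 liver markers summed to 0.153 to 251 CPM in low clones and to 0.0870 to 0.215 CPM in the 4 clones. The part of liver RNA in these genes was not tested.

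On the 2-clone side, the genes below all low libraries included Twist1, Cacna2d1 and the cell migration gene Srgap1, and those above included the factors Gata3 and Meis3. The margin was narrow for Twist1, whose highest 2-clone value was 0.557 CPM and lowest low clone 0.564 CPM. Fgfr4, a fibroblast growth factor receptor gene, was above all low libraries in both sides. It was at 51.3, 47.2, 41.1 and 96.6 CPM against 44.8, 46.4, 63.05 and 48.3 CPM in the T cell high sides and at 0.123 to 37.1 CPM in low clones, and the sides overlapped. Fgfr4 and the other genes named in this comparison with low clones were chosen after their values were seen.

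The other heart-free libraries were placed gene by gene against the midpoint between the sides. The intermediate clone yfp_7160c5, a sister of yfp_7160c2, was nearer the 4-clone side for 91.2% of the 250 genes and nearer the 2-clone side for 23.9% of the 88. The intermediate clone yfp_6422c5 had 27.2% and 60.2%, within the range of the low libraries. Low libraries ran from 12.8% in yfp_6694c2 to 68.4% in yfp_6419c5 for the 250 genes, and from 31.8% in yfp_6421c2 to 78.4% in yfp_6694c2 for the 88. Low sisters of member clones were placed too: the low clone yfp_6499c3 had 31.2% and 53.4% although its sister yfp_6499c4 is on the 4-clone side, and the low clone yfp_6556c3 had 15.2% and 76.1% with its sister yfp_6556c4 on the 2-clone side. Of the 250 genes, 27 had no low clone nearer the 4-clone side and 2 had all 8. Low libraries were thus spread between the sides.

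**Figure D4:**
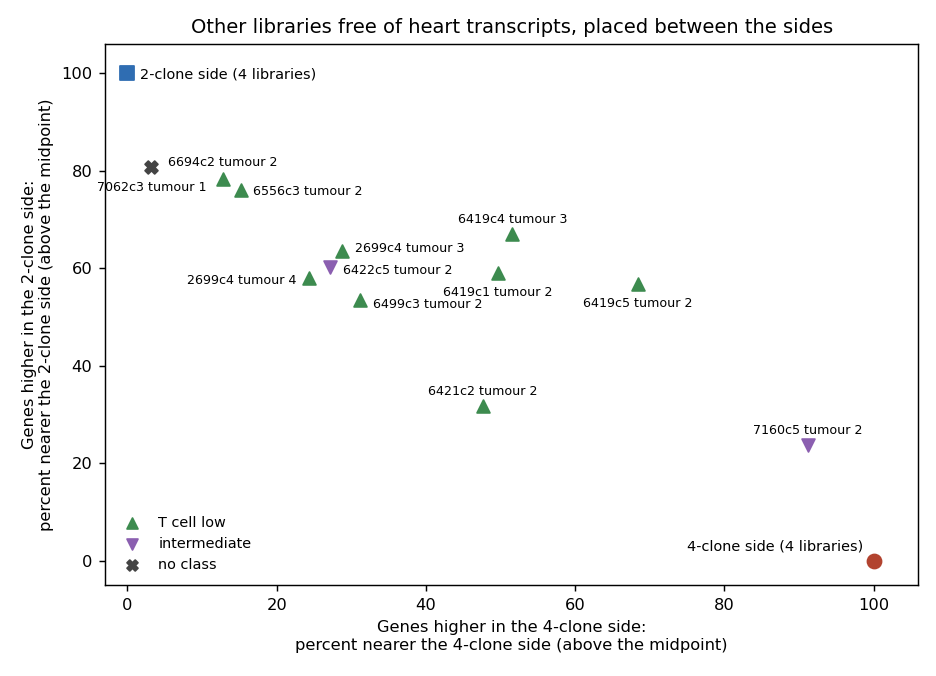
Share of the 250 genes (x axis, percent) and of the 88 genes (y axis, percent) for which each other heart-free library lies nearer the side where those genes are high, with the 8 libraries that chose the genes at the corners by construction. The intermediate clone yfp_7160c5 lies at 91.2% and 23.9%, near the 4-clone corner, and T cell low libraries lie between 12.8% and 68.4% on the x axis.

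By chromosome, the sides differed in steps smaller than those of single genes. With a mean of 10 CPM or more required, the median difference was -0.49 on chromosome 14, -0.33 on 13 and 0.33 on 10. The sides did not overlap in their clone medians on these 3, nor on 1, 11, 15 and 19, nor for the mitochondrial genes, whose median was 1.17. Of 498 genes on chromosome 13 that passed the filter, 0 were separated toward the 4-clone side, beside 1.84% of all genes. Of 629 on chromosome 10, 0 were separated toward the 2-clone side, beside 0.647%. Chromosomes 13 and 10 are named for these counts, and the sides were formed from the same libraries, so neither counts nor medians carry a test. Copy number was not measured and its part was not tested.

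Tumour 1 libraries labelled as the same 6 clones were not used to form the sides and were tested, with a limit that comes first. Their heart sum was 2553 to 4872 CPM, and 6 liver markers summed to 8879 to 15890 CPM, against at most 33.9 CPM in the 8 libraries. Fibroblast markers summed to 2711 to 9697 CPM and macrophage markers to 2798 to 4301 CPM. The libraries of yfp_6499c4, yfp_6555c3, yfp_6620c1 and yfp_6556c4 differed from each other by a chi-square per degree of freedom of only 3.83 to 6.45, although yfp_6556c4 belongs to the other side, while yfp_7160c2 and yfp_2838c3 stood apart at 53.9 to 170. Ddx3y, at 0 in tumour 2 of yfp_6499c4, yfp_6620c1 and yfp_6556c4, was at 43.6, 43.1, 45.2 and 51.6 CPM in tumour 1 of the 4 clones and at 39.8 and 33.5 CPM in yfp_6556c4 and yfp_2838c3. With yfp_6556c4 so close to libraries of the other side, the test cannot decide whether the sides differ in tumour 1. The part of this likeness between tumour 1 libraries in the results that follow was not tested.

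In these 6 libraries edgeR's quasi-likelihood test called 0 of 17992 genes, 0%, at a Benjamini-Hochberg adjusted p under 0.05. The smallest adjusted p was 0.965, and 490 genes had an unadjusted p under 0.05. DESeq2 also called 0, with 580 at an unadjusted p under 0.05, and limma 0, with 357. Each of these counts is a smaller share of the 17992 genes than the 0.05 that chance alone would give. Without the yfp_6556c4 library, 15 genes were called higher in the 4 clones and 434 higher in yfp_2838c3, with the lone library assumed to vary like the others. Of the 250 genes, 238 had the same sign in tumour 1, 95.2%, and of the 87 tested among the 88, 70, 80.5%, beside 64.1% of all genes past both filters. Their medians were 0.54 and -0.36, far smaller than in the 8 libraries. These counts leaned on yfp_7160c2 and yfp_2838c3, and no fit left out both. Relative to the mean of the 6 libraries the 250 genes had a median of 0.86 in yfp_7160c2 and -0.64 in yfp_2838c3. It was -0.03 in yfp_6499c4, -0.14 in yfp_6555c3 and 0.02 in yfp_6620c1. In yfp_6556c4, of the other side, it was 0.06, above these last values. Without yfp_2838c3 the counts of same sign fell to 200, or 80.0%, and 55, or 62.5%, beside 53.4% of all genes. Without yfp_7160c2 they fell to 211, or 85.4%, and 59, or 67.8%, beside 60.2% of all genes. The shares of genes higher in the 2 clones were thus near those of all genes.

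In tumour 1, Twist1 and Nqo1 overlapped between the sides and Asz1 did not. Twist1 was at 12.8, 11.5, 19.2 and 25.03 CPM in tumour 1 of the 4 clones and at 12.2 and 8.62 CPM in yfp_6556c4 and yfp_2838c3, a fitted log2 difference of 0.73 ± 0.34 (SE, adjusted p = 0.965, edgeR). Asz1 was at 2.09, 1.38, 2.22 and 18.5 CPM against 0.700 and 0.653 CPM, a difference of 3.19 ± 1.26 (SE, adjusted p = 0.965, edgeR), with yfp_7160c2 apart from the other 5. Nqo1, at 19.6, 19.05, 17.7 and 10.2 CPM against 18.003 and 15.5 CPM, differed by -0.01 ± 0.26 (SE, adjusted p = 0.998, edgeR) and did not show its gap of the 8 libraries. The source of its counts there was not tested. None of the 3 passed the test, and an adjusted p that misses the threshold does not show that the sides were alike in tumour 1.

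**Figure D5:**
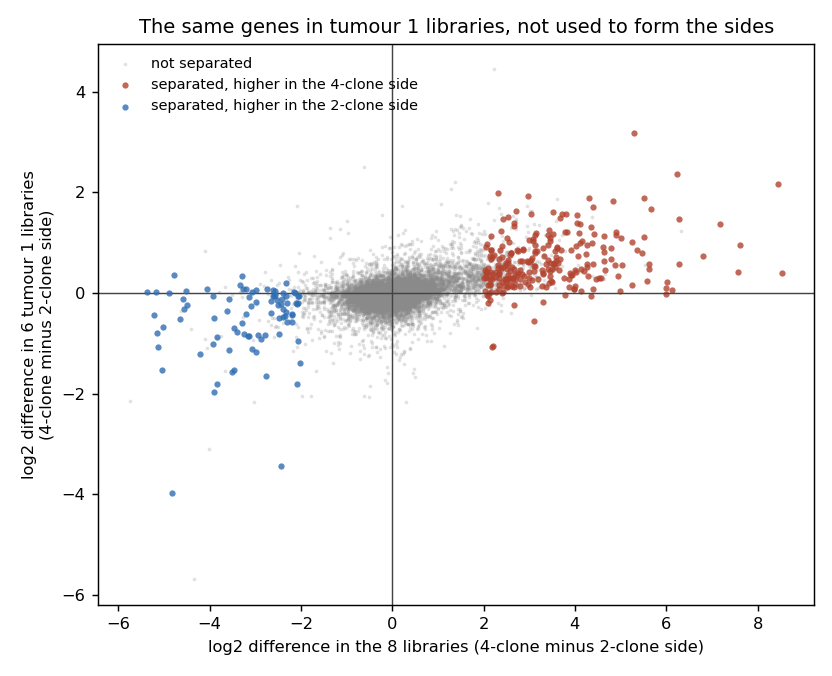
Log2 difference between the sides in 6 tumour 1 libraries (y axis) against the difference in the 8 libraries (x axis), with a point per gene and separated genes in colour. Of the 250 genes on the right 238 lie above 0 and of the 87 on the left 70 lie below 0, and their tumour 1 medians are 0.54 and -0.36.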

How the data were processed

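Sorted tumour cells were sequenced in 39 libraries. The authors deposited whole-number counts per gene, made with STAR and featureCounts on mm10, per the submitters' processing notes. The strand setting is not given in the sources used here, nor are the annotation and tool versions, so overlapping and antisense genes, and near-identical copies (H2, Gst and Gstm genes), are uncertain. Positions come from GENCODE M21 by gene identifier.

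CPM was computed in Python with TMM factors from edgeR 4.0.16 in R 4.3.3, taken over the heart-free libraries. For log2 values a prior count of 2 was used. Tumour 1 CPM used TMM factors over the tumour 1 libraries. The heart sums that selected libraries were scaled by total counts without TMM factors. Genes needed a mean of 1 CPM over the 8 libraries. Clones were weighted equally. Tables were made with Python 3.11.15, pandas 2.3.3 and numpy 2.4.6. Differences in the 8 libraries carry no test. The 6 tumour 1 libraries were tested with edgeR's quasi-likelihood test and Benjamini-Hochberg adjustment, with DESeq2 1.42.0 and limma 3.58.1 as alternatives. Its p-values measure only the spread between these libraries, which may be technical. The procedures were checked on simulated data.

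Named genes were, in each direction, the 15 separated genes with the widest gap among those at 10 CPM or more in the higher side, without predicted symbols; up to 4 genes of each of 52 lists, separated ones first and then the most abundant; 3 genes per clone with the widest gap over all others; and 5 per direction between yfp_6556c4 and yfp_2838c3. Further separated list members, and genes beyond all low clones, were named after their values were seen. The members and lists were chosen with earlier results of these data known.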

Additional observations from a re-analysis of the deposited data

Results flagged for a closer look

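Within each side, the 4 libraries of every gene named in the report were searched for a library far from its side, meaning that its gap to the nearest other library took up most of the range of the side (Dixon's test at the 95% level, on log2 CPM). Of 177 groups of 4 libraries 24 had one, and chance alone marks about 1 in 20 groups. On the 2-clone side 3 of the 4 libraries are of 1 clone, so a library of yfp_6556c4 is the only one of its clone there. The private genes among them were picked because a clone stood apart.

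In yfp_2838c3 tumour 3 of the 2-clone side, Cxcl12 was at 0.340 CPM against 1.53 to 1.73 CPM in the other 3 libraries.

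In yfp_2838c3 tumour 4 of the 2-clone side, Gapdh was at 856 CPM against 2106 to 2527 CPM in the other 3 libraries.

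In yfp_6556c4 tumour 2 of the 2-clone side, Asz1 was at 2.47 CPM against 0.199 to 0.267 CPM and Rasef was at 93.5 CPM against 15.03 to 17.9 CPM in the other 3 libraries. Ctnnb1 was at 2189 CPM against 1579.6 to 1624 CPM and Cxcl1 was at 21.9 CPM against 0.462 to 0.795 CPM. Cdkn2a was at 0.209 CPM against 174 to 245 CPM and Cdkn2b was at 0.104 CPM against 69.0 to 84.8 CPM. Sall1 was at 0.0348 CPM against 36.2 to 58.1 CPM and Pax2 was at 0.0348 CPM against 30.1 to 55.4 CPM. Clec2f was at 70.01 CPM against 0 CPM and Thbs4 was at 63.8 CPM against 0.348 to 0.486 CPM. Trib2 was at 56.1 CPM against 0.219 to 0.397 CPM and Xist was at 3.97 CPM against 1795 to 2395 CPM.

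In yfp_6499c4 tumour 2 of the 4-clone side, Il1r1 was at 0.899 CPM against 29.4 to 35.9 CPM and Wnt7a was at 28.7 CPM against 71.0 to 73.7 CPM in the other 3 libraries.

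In yfp_6555c3 tumour 2 of the 4-clone side, Gfra2 was at 2.54 CPM against 0.928 to 1.02 CPM and Prss8 was at 5.89 CPM against 7.40 to 7.72 CPM in the other 3 libraries. Cd74 was at 551 CPM against 243 to 272 CPM.

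In yfp_6620c1 tumour 2 of the 4-clone side, Rasef was at 0 CPM against 1.91 to 3.09 CPM and Stra6 was at 67.9 CPM against 185 to 223 CPM in the other 3 libraries. Scn3b was at 19.2 CPM against 0.0268 to 0.0627 CPM.

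In yfp_7160c2 tumour 2 of the 4-clone side, Ror1 was at 0.778 CPM against 5.92 to 6.58 CPM and Epcam was at 839 CPM against 408 to 434 CPM in the other 3 libraries.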

How the results depend on the processing

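Of the 234 genes named by rule, 102 changed sign under at least 1 alternative, 68 of them between leukocyte-rich libraries, 38 between leukocyte-poor ones and 31 without yfp_6556c4, while 0 of the 62 separated ones did, a direction that their choice largely fixes. The counts of separated genes, 250 and 88, stayed within 1.5 times under other scalings, priors and weights, such as 266 and 78 with total counts only and 355 and 112 with no filter. They were 102 and 42 with a mean of at least 10 CPM, 490 and 279 with a minimum difference of 1, and 459 and 136 with 1 library of yfp_2838c3. Leaving out 1 library at a time gave 243 to 408 and 88 to 187, both highest without yfp_6556c4. With leukocyte-poor libraries only they were 542 and 267, and with leukocyte-rich ones only 483 and 275. The leukocyte splits of counts, genes and lists, and the other scalings of chromosome medians, were chosen after seeing the data. The first component held 39.8% of the variance with all genes, 53.17% without marker genes of other cell types and 28.2% over all heart-free libraries. In tumour 1, leaving out 1 library gave 0 to 449 called genes, all 449 without yfp_6556c4, 200 to 240 genes of the same sign among those higher in the 4 clones and 55 to 79 among the others. For these 234 genes, 4508 alternative values moved by no more than the larger standard deviation over the 4 libraries of either side. The other 172 moved by more, all in the leukocyte splits. That spread contains yfp_6556c4, so leaving out this library could hardly count as a move. The difference of Clec2f went from -4.11 to 1.03 without yfp_6556c4. With total counts only, the median difference of all genes was 0.08 and that of desmosome genes 0.06 in place of -0.03. No paired analysis was possible because the libraries compared share fewer than 2 tumour numbers between the sides. With 2 clones on a side, 1 clone decides many of these values, and genes under 1 CPM rest on few counts.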

Other observations

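Clone yfp_7062c3, whose T cell class the labels do not give, had 1 heart-free library, from tumour 1. It lay nearer the 4-clone side for 3.2% of the 250 genes and nearer the 2-clone side for 80.7% of the 88. This was the lowest share of the 250 genes, and the highest of the 88, among the 12 heart-free libraries outside the 8 compared.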
